A study of Mus musculus with 6 samples.

Results

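The genes that build cholesterol and move it in and out of cells were followed in colorectal tumors of mice with and without *Trp53* in the gut epithelium. The list follows the known roles of the genes and no measured value entered its rule. The list was, however, chosen with earlier results of these data known. It holds 31 of the 54167 genes in the deposited table, and 30 of the 31 reached at least 1 TPM (a transcript level scaled for length and to the same total in each tumor) in at least 3 tumors, as did 15117 genes in all. The genotypes were *Trp53fl/fl*, whose *Trp53* alleles carry loxP sites without a Cre to cut them, and *VP* (*Pvillin-Cre* with *Trp53fl/fl*), with 3 tumors each. All mice were of the C57BL/6J strain and carried floxed *Trp53* alleles. Per the study's methods they were male, and at 8 weeks of age they received 10 mg/kg of the carcinogen azoxymethane (AOM), and then repeated courses, 7 days each, of 2.5% dextran sulfate sodium (DSS), an agent that injures the colon lining, and tumors were collected on day 98. The villin promoter drives Cre in intestinal epithelial cells, so stromal, vascular and immune cells of *VP* tumors keep *Trp53*.

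Cholesterol is built from acetyl-CoA. Enzymes of the mevalonate pathway make isoprenoid units, which are joined to squalene, and squalene is closed into a ring and trimmed to cholesterol. When sterols are scarce, the transcription factor SREBP2 (*Srebf2*) is carried by SCAP from the endoplasmic reticulum to the Golgi, is cut there and turns on the genes of this pathway, whereas INSIG1 and INSIG2 hold it back. When sterols are plentiful, the LXR receptors (*Nr1h3* and *Nr1h2*) turn on the exporters ABCA1 and ABCG1. In the colon, cells that renew quickly need cholesterol for new membranes.

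*Trp53* had 125, 99.3 and 147 TPM in *Trp53fl/fl* tumors against 38.5, 32.8 and 27.8 TPM in *VP* tumors, without overlap. The tissue label was checked against 12 epithelial markers, all of which passed the filter, and *Epcam* lay between 1159 and 1526 TPM in the 6 tumors. The summed level of these 12 markers was 10485 to 10808 TPM in *Trp53fl/fl* tumors and 11845 to 12857 TPM in *VP* tumors, and 10 of 12 had a positive log2 fold change. Of these, 3 (*Krt19*, *Lgals4* and *Cldn7*) had an unadjusted limma p under 0.05. *Epcam*, *Krt18* and *Cdh1* had log2 fold changes of 0.0028, 0.0036 and 0.024, and *Krt20* and *Cdx2* were negative. The summed level of 12 neutrophil markers was 456 to 1077 TPM against 1569 to 2636 TPM, with all 10 tested members higher and 9 at an unadjusted limma p under 0.05, although *Elane* and *Mpo* stayed below 1 TPM in every tumor. Macrophage markers (12 genes) overlapped between the genotypes in sum, at 1281 to 1378 TPM against 1131 to 1567 TPM, and of the 11 tested, 8 were higher and 2 of these, *Cd68* and *Cd14*, had an unadjusted limma p under 0.05. The sums of the other lists overlapped as well. Of 9 tested T cell markers 9 were lower, 1 of them at an unadjusted limma p under 0.05, and of 9 tested fibroblast markers 6 were lower, 3 of them at that p (*Pdgfra*, *Lum* and *Dpt*). Among all 15117 genes tested, 39.2% had a positive log2 fold change. At that p, 4.51% of them lay on the upper side and 8% on the lower side. A lean of 6 in 9 markers, or a single call in 8 or 9, is thus near these shares. The sums were 51.0 to 67.2 against 28.5 to 53.6 TPM for T cells, 579 to 1010 against 569 to 1070 TPM for B and plasma cells, 884 to 976 against 740 to 1087 TPM for fibroblasts, 515 to 850 against 437 to 1390 TPM for smooth muscle and 109.8 to 137 against 126 to 139 TPM for endothelium, where 1 of 8 markers was higher at that p. The part of these cell types in the values below was not tested, and in bulk tissue fewer cells of a type and less RNA per cell cannot be told apart.

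RefSeq promoter entries (GRCm38.p6) were at hand for 25 of the 31 genes, with 32 windows of 250 bases before a start of transcription, and sequence was read from them by gene name. SREBP2 is known to bind sterol regulatory elements together with the factor NF-Y, which binds CCAAT boxes. The CCAAT box (CCAAT, either strand) was present in the windows of 20 of the 25 genes, in 20 of the 32 windows, and in 33.8% of all 32851 windows of the same length. The core of the sterol regulatory element (TCACNCCAC, either strand) was found for *Hmgcs1* alone among these 25 genes, and 1.05% of all windows hold it. Other forms of the element were not searched. *Fdps*, *Fdft1*, *Sqle*, *Stard4*, *Npc1* and *Abcg1* had no window and were not scanned. The E-box (CACGTG) was present for 6 genes, *Abca1*, *Dhcr7*, *Hsd17b7*, *Insig1*, *Sc5d* and *Scap*, in 6 of the 32 windows, against 6.02% of all windows. For *Dhcr7* and *Scap* it lay only in the window of a start further downstream. These are matches of letters, and binding was not measured.

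The windows of 5 genes are shown for the genes that the text returns to most. They are *Hmgcs1*, the only one of the 25 with the sterol element core, and *Dhcr7*, *Pmvk*, *Insig2* and *Abca1*, the 4 with the smallest unadjusted p. These windows run 5′ to 3′ on the strand of the gene, end before its annotated first exon, and lie before its most upstream start. They lie at chr13:119690101-119690350 (plus strand), chr7:143822917-143823144 (plus strand), chr3:89454291-89454540 (plus strand), chr1:121332590-121332839 (minus strand) and chr4:53159896-53160145 (minus strand). Capitals mark CCAAT boxes (CCAAT or ATTGG), E-boxes and the sterol element core.

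Hmgcs1: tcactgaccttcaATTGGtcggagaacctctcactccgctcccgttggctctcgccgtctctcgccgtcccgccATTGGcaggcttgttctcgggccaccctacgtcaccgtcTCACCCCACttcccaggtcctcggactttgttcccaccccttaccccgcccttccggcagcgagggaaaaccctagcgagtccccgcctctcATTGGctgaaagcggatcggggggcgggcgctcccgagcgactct

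Dhcr7: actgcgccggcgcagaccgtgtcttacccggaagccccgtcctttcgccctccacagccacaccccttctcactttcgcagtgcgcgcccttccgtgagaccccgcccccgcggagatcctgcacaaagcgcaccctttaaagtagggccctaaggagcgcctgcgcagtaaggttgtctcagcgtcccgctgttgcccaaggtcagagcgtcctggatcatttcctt

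Pmvk: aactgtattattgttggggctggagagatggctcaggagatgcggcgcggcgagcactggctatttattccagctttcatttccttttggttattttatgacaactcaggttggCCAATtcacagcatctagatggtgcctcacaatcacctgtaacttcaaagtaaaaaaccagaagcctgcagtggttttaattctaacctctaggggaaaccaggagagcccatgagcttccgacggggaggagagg

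Insig2: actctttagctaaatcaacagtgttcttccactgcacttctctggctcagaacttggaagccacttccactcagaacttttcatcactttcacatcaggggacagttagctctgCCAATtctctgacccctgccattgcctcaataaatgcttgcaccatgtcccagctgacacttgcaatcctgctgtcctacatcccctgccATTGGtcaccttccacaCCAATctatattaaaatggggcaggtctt

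Abca1: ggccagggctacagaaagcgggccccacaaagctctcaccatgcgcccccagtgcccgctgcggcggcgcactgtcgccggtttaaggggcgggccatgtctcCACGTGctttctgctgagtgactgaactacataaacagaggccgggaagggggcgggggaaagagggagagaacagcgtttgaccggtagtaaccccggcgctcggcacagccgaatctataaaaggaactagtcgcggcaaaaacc

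The *Hmgcs1* window holds 3 CCAAT boxes, which begin 237, 176 and 45 bases before the start, and the sterol element core 137 bases before it. The *Insig2* window holds 3 CCAAT boxes, at 136, 46 and 29 bases, the *Pmvk* window 1, at 136 bases, and the *Abca1* window an E-box at 147 bases. The *Dhcr7* window shown holds none of the motifs. Of the other RefSeq starts of *Dhcr7*, the next one downstream has the E-box in its window and the one after that 2 CCAAT boxes. The windows of the other RefSeq starts of *Insig2* and *Pmvk* hold none of the motifs. The other *Pmvk* window (chr3:89459321-89459570) appears to include the start of the coding sequence, so it is not wholly upstream sequence. The bases just before that window were not scanned.

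**Figure D1:**
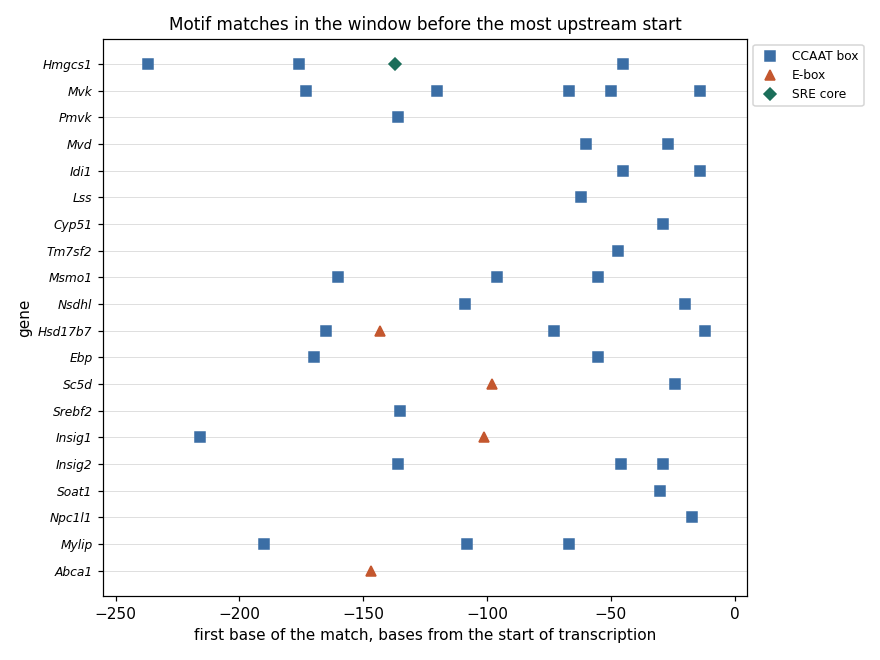
Motif matches in the 250 bases before the most upstream RefSeq start of each gene, by distance in bases from the start of transcription (x axis), with 1 line per gene that has a match (y axis). Squares are CCAAT boxes, triangles E-boxes and the diamond the sterol element core, which appears for *Hmgcs1* alone among the 25 genes with a window.

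The comparison of *VP* with *Trp53fl/fl* tumors asks how the loss of p53 in the epithelium goes with the transcription of these genes. None of the 30 tested genes passed limma with Benjamini-Hochberg adjustment over all 15117 genes at 0.05, which 0.165% of all genes passed, and the smallest adjusted p among them was 0.312. At an unadjusted limma p under 0.05 there were 4, or 13.3% of the 30, against 12.5% of all genes tested. *Pmvk* and *Dhcr7* were the 2 on the higher side in *VP* tumors (background 4.51%), and *Insig2* and *Abca1* the 2 on the lower side (background 8%). The genotypes did not overlap for 4 genes, *Cyp51* and *Dhcr7* upward (background 6.03%) and *Insig2* and *Abca1* downward (background 13.3%). The share at an unadjusted p under 0.05 was thus near that of all genes, and the share without overlap in either direction, 13.3% of the list, was below the 19.3% of all genes. Fold changes are given on the log2(TPM + 1) scale, *VP* minus *Trp53fl/fl*, a scale that makes differences of weakly expressed genes look smaller. The median over the 30 genes was 0.047, with 17 positive and 13 negative values, beside a median of -0.070 over all genes tested, of which 39.2% were positive. The sign of the list's median depended on the scaling, at 0.12 with median-of-ratios rescaling (all genes 0.000624) and -0.13 with centring on the epithelial markers (all genes -0.25).

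**Figure D2:**
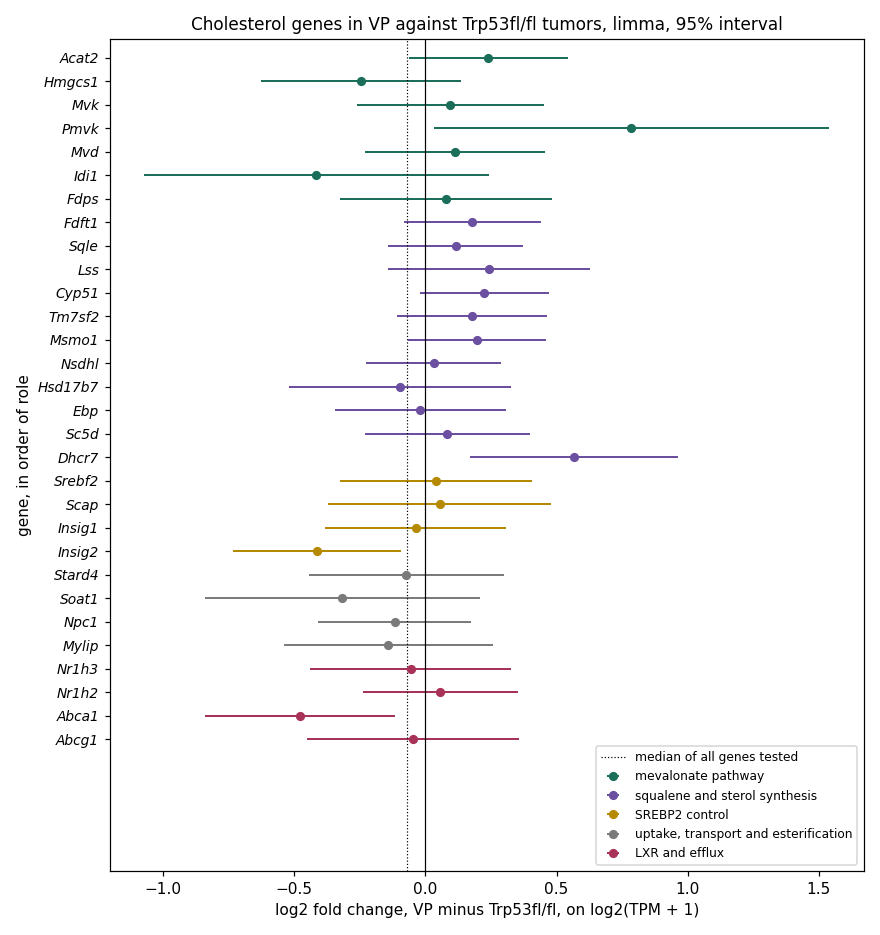
Log2 fold change of each tested cholesterol gene (x axis, *VP* minus *Trp53fl/fl* on log2(TPM + 1), 3 tumors per genotype) with its 95% interval from limma, in order of role (y axis), and the median of all genes tested as a dotted line. The intervals of *Pmvk*, *Dhcr7*, *Insig2* and *Abca1* do not reach 0, before adjustment, and the other 26 intervals include it.

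Of the 7 mevalonate pathway genes, 5 lay above and 2 below 0 in log2 fold change (median 0.095), beside 39.2% positive over all genes. *Pmvk* (ENSMUSG00000027952), phosphomevalonate kinase, had 25.1, 24.9 and 50.7 TPM in *Trp53fl/fl* tumors against 39.6, 69.6 and 61.2 TPM in *VP* tumors. *Trp53fl/fl* replicate 3 lay above *VP* replicate 1, so the genotypes overlapped, and *Trp53fl/fl* replicates 1 and 2 stood well below the other 4 tumors. At 0.79 its log2 fold change was the largest positive one of the list (standard error 0.32, limma adjusted p = 0.387). It was 1.12 without *Trp53fl/fl* replicate 3. Without *Trp53fl/fl* replicate 1 or 2 or *VP* replicate 2 or 3 it was 0.62 to 0.71, and its unadjusted p no longer lay under 0.05. *Idi1*, isopentenyl-diphosphate isomerase, lay mostly the other way, at 71.2, 109.9 and 47.8 TPM against 47.7, 58.3 and 56.1 TPM. The *VP* tumors differed among themselves by 1.22-fold and the *Trp53fl/fl* tumors by 2.30-fold, and the difference of -0.42 on the log2 scale (standard error 0.28, limma adjusted p = 0.551) became -0.11 without *Trp53fl/fl* replicate 2. *Idi1* shares 684 identical bases with a transcript deposited as *Idi1-ps1*, which was at 14.7, 29.8, 7.76, 12.9, 11.3 and 10.9 TPM in the same order of tumors, so that reads may have been divided between the pair.

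*Hmgcs1*, cytosolic HMG-CoA synthase, was at 131, 144 and 94.9 TPM in *Trp53fl/fl* tumors and at 107, 98.4 and 102 TPM in *VP* tumors. *Trp53fl/fl* replicate 2 was highest, as for *Idi1*, and *Trp53fl/fl* replicate 3 lowest of the 6 tumors, and the 3 *VP* tumors lay within 1.08-fold of each other (log2 fold change -0.25, standard error 0.16, limma adjusted p = 0.544). *Hmgcs1* and *Idi1*, which share the CCAAT box with 18 other genes of the list, summed to 202, 254 and 143 TPM in *Trp53fl/fl* tumors and to 154, 157 and 158 TPM in *VP* tumors. In this sum the *VP* tumors thus sat close together inside the wide range of the controls. These are the 2 mevalonate genes with a negative log2 fold change, and their values were added after being seen. Of the *VP* tumors, replicate 1 was highest for *Hmgcs1* and lowest for *Idi1*. Over all 7 mevalonate genes the *VP* sums were the wider ones (SD 98.8 against 8.45 TPM in *Trp53fl/fl* tumors).

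The remaining mevalonate genes overlapped between the genotypes. *Fdps*, farnesyl diphosphate synthase, was the most abundant gene of the list at 268 ± 27.9 TPM in *Trp53fl/fl* tumors (SD, n = 3) against 287 ± 57.3 TPM with *VP* (SD, n = 3), which is 0.079 on the log2 scale with a 95% interval from -0.32 to 0.48. *Acat2*, cytosolic acetyl-CoA acetyltransferase, was at 50.0 ± 4.35 and 59.4 ± 7.56 TPM (log2 fold change 0.24). *Trp53fl/fl* replicate 3 and *VP* replicate 1 were nearly level for *Acat2*, at 54.5 and 54.3 TPM. *Mvk*, mevalonate kinase, and *Mvd*, mevalonate diphosphate decarboxylase, had log2 fold changes of 0.095 and 0.11. Without *VP* replicate 1 that of *Mvd* was 0.26, and without *VP* replicate 3 it was 0.039. *Acat2* has a near-identical copy in the annotation, *Acat3*, at no more than 3 TPM in any tumor. *Acat2* also shares 445 bases at 98.7% identity with *Tcp1*, which lay between 150.5 and 184 TPM. *Fdps* shares 929 identical bases with *Gm43738*, an overlapping gene on the same strand at no more than 9.94 TPM in any tumor.

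Of the 11 genes from squalene to cholesterol, 9 lay above 0 in log2 fold change (median 0.18), beside a median of -0.070 and 39.2% positive over all genes. *Dhcr7* (ENSMUSG00000058454), which makes cholesterol from 7-dehydrocholesterol in the last step, had 55.1, 62.1 and 71.7 TPM in *Trp53fl/fl* tumors against 76.0, 112 and 95.5 TPM in *VP* tumors. Every *VP* tumor lay above every *Trp53fl/fl* tumor, although *Trp53fl/fl* replicate 3 and *VP* replicate 1 were close. The log2 fold change was 0.57 (standard error 0.17, 95% interval 0.17 to 0.96), with a limma adjusted p of 0.312. Leaving out single tumors gave 0.44 to 0.71, each with an unadjusted p under 0.05. The log2 fold change was 0.39, with an unadjusted limma p of 0.0619, after centring each tumor on the epithelial markers. These markers were themselves higher in *VP* tumors in sum, and the centring lowered the median of all genes tested to -0.25.

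*Cyp51* (ENSMUSG00000001467), lanosterol 14-demethylase, was at 75.1, 77.2 and 67.5 TPM in *Trp53fl/fl* tumors and at 81.3, 91.1 and 84.7 TPM in *VP* tumors. The genotypes did not overlap, but the step between them was small, 0.22 on the log2 scale (standard error 0.10, limma adjusted p = 0.424). It was 0.050 with epithelial centring, which lowered the median of all genes tested to -0.25. *Msmo1*, the sterol C4-methyl oxidase that acts after it, was at 82.2, 90.1 and 76.5 TPM against 94.3, 103 and 88.2 TPM. Here 1 pair of tumors crossed, with *Trp53fl/fl* replicate 2 above *VP* replicate 3, and the log2 fold change was 0.20 (limma adjusted p = 0.492).

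*Fdft1*, squalene synthase, was at 89.0 ± 6.77 and 100.8 ± 8.02 TPM, and *Lss*, lanosterol synthase, at 16.2 ± 1.80 and 19.5 ± 3.55 TPM (SD, n = 3 each), with log2 fold changes of 0.18 and 0.24. That of *Lss* was 0.12 without *VP* replicate 2 and 0.37 without *VP* replicate 3. *Fdft1* shares 774 identical bases with *Ctsb*, a neighbour on the other strand at 280 to 363 TPM, and the sources used here do not say whether strand was used in counting. *Tm7sf2*, a sterol C14-reductase that shares 532 exon bases with *Vps51* on the same strand, had a log2 fold change of 0.18. *Sqle*, squalene epoxidase and an early rate-controlling enzyme of this stretch, had one of 0.12. The value of *Sqle* was 0.039 without *VP* replicate 2 and 0.18 without *VP* replicate 3. Little distance separated the genotypes for *Sc5d* (0.084), *Nsdhl* (0.031), *Ebp* (-0.019) and *Hsd17b7* (-0.097), which act on late ring intermediates. *Nsdhl* was the steadiest enzyme of the controls, at 48.5, 48.1 and 47.4 TPM, and *Sc5d* of the *VP* tumors, at 47.7, 48.1 and 48.2 TPM. The 95% interval of *Nsdhl* ran from -0.22 to 0.29, so that shifts of this size in either direction are within the error.

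**Figure D3:**
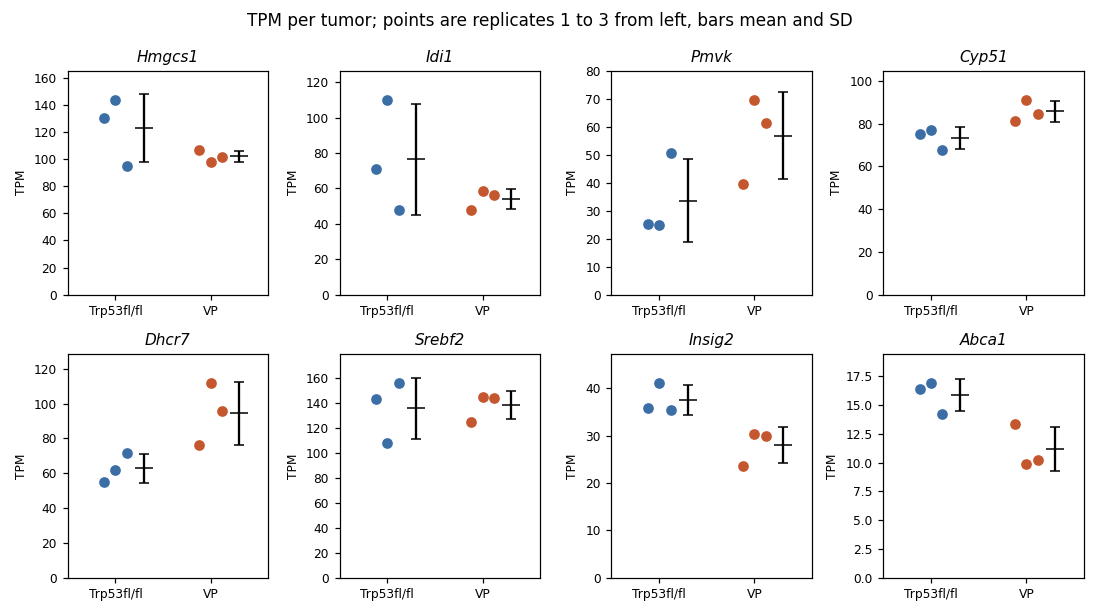
TPM (y axis, from 0) of 8 genes in each tumor, with *Trp53fl/fl* in blue and *VP* in orange, replicates 1 to 3 from left, and the mean with SD in black. *Dhcr7* and *Cyp51* lie higher and *Insig2* and *Abca1* lower in *VP* tumors without overlap, and *Trp53fl/fl* replicates 1 and 2 are the low tumors for *Pmvk*, which overlaps.

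Summed over the 11 squalene and sterol genes, the level was 612, 619 and 616 TPM in *Trp53fl/fl* tumors against 661, 746 and 699 TPM in *VP* tumors. The control tumors were nearly level and all *VP* tumors lay above them, by 1.14-fold on average. The summed epithelial markers separated the genotypes in the same direction (10485 to 10808 TPM against 11845 to 12857 TPM). After centring on them the median log2 fold change of the 11 genes was 0.0015 in place of 0.18. The same centring moved the median of all genes tested from -0.070 to -0.25, so the 11 genes stayed above it. The part of the epithelial share in this sum was not tested. *VP* replicate 2 was the highest tumor for 6 of the 11 genes, and *Trp53fl/fl* replicate 3 the lowest for 5. The 7 mevalonate genes summed to 665, 677 and 682 TPM against 581, 770 and 726 TPM, with *VP* replicate 1 lowest of all and the other *VP* tumors highest. All 18 enzymes together came to 1291 ± 11.2 TPM in *Trp53fl/fl* and 1395 ± 139 TPM in *VP* tumors (SD, 3 tumors each), a difference of 104 TPM that was smaller than the spread among *VP* tumors. It was 43.1 TPM without *VP* replicate 2 and 180.01 TPM without *VP* replicate 1. *Fdps* alone made up between 17.8% and 22.8% of that sum in each tumor.

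**Figure D4:**
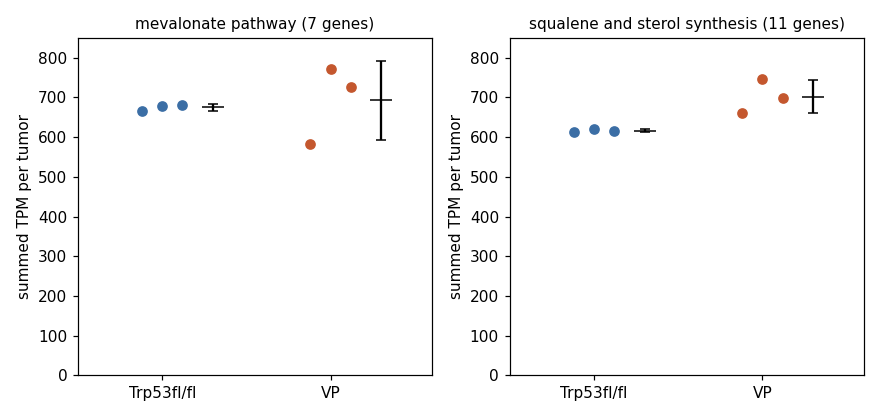
Summed TPM per tumor (y axis, from 0) of the mevalonate pathway genes (left) and the squalene and sterol synthesis genes (right) in *Trp53fl/fl* (blue) and *VP* (orange) tumors, with the mean and SD in black. The *Trp53fl/fl* tumors lie between 612 and 619 TPM for the sterol genes, below the *VP* tumors at 661 to 746 TPM, while the mevalonate sums overlap.

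Of the 4 genes that control SREBP2, 2 were positive and 2 negative. *Insig2* (ENSMUSG00000003721), which retains SCAP in the endoplasmic reticulum, had 35.9, 41.0 and 35.4 TPM in *Trp53fl/fl* tumors against 23.7, 30.3 and 29.9 TPM in *VP* tumors. All *VP* tumors lay below all controls, with *VP* replicate 1 lowest. The log2 fold change was -0.41 (standard error 0.14, 95% interval -0.73 to -0.09, limma adjusted p = 0.331), and leaving out single tumors gave -0.47 to -0.30, with an unadjusted p above 0.05 without *Trp53fl/fl* replicate 2 (0.0552) or *VP* replicate 1 (0.0557). *Insig1*, which does the same and is itself a target of SREBP2, overlapped, at 57.3, 49.4 and 42.0 TPM against 53.6, 47.4 and 43.3 TPM (log2 fold change -0.037, standard error 0.15). The difference between the *Insig* genes was not tested. *Srebf2* was the second most abundant gene of the list, at 143, 108 and 156 TPM against 125, 145 and 144 TPM. Both ends of its range were controls, and the log2 fold change was 0.039 with a 95% interval from -0.33 to 0.40. *Scap* was at 37.6 ± 6.54 and 39.0 ± 6.63 TPM (SD, n = 3 each), or 0.054 on the log2 scale.

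The 4 tested genes of uptake, transport and storage all lay below 0 in log2 fold change (median -0.13). Over all genes tested the median was -0.070 and 39.2% were positive. None of the 4 had an unadjusted limma p under 0.05, against 12.5% of all genes. *Soat1*, which esterifies cholesterol for storage in droplets, was at 44.8, 50.6 and 47.4 TPM in the controls and at 55.3, 30.6 and 32.3 TPM in *VP* tumors. *VP* replicate 1 was the highest and the other *VP* tumors the lowest, and the difference of -0.32 on the log2 scale (limma adjusted p = 0.566) became -0.58 without *VP* replicate 1 (then at an unadjusted limma p under 0.05) and -0.17 without *VP* replicate 2. *Npc1*, which releases cholesterol from lysosomes, had a log2 fold change of -0.12 (-0.019 without *Trp53fl/fl* replicate 3), *Mylip*, a ubiquitin ligase induced by LXR that removes lipoprotein receptors, one of -0.14, and *Stard4*, a cytosolic sterol carrier, one of -0.072. *Npc1* shares 323 identical bases with *Rmc1*, a gene on the opposite strand at 25.1 to 33.8 TPM. *Npc1l1*, which takes up dietary cholesterol in the small intestine, was the 1 gene below the filter, at 0.08, 0 and 0.02 TPM in the controls and 0.14, 0.04 and 0.03 TPM in *VP* tumors, near the smallest value the table holds (0.01 TPM), and no fold is given for it.

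Of the 4 genes of LXR and efflux, *Abca1* (ENSMUSG00000015243), which exports cholesterol to lipid-poor apolipoproteins, had 16.4, 16.9 and 14.3 TPM in *Trp53fl/fl* tumors against 13.4, 9.91 and 10.2 TPM in *VP* tumors. The genotypes did not overlap, although *Trp53fl/fl* replicate 3 and *VP* replicate 1 were again neighbours. At -0.48 its log2 fold change was the most negative of the list (standard error 0.15, 95% interval -0.84 to -0.12, limma adjusted p = 0.323). Leaving out single tumors gave -0.60 to -0.40, with an unadjusted p above 0.05 without *Trp53fl/fl* replicate 1 (0.0554), *VP* replicate 2 (0.0577) or *VP* replicate 3 (0.0533). *Abca1* is known to be abundant in macrophages. Of their 11 tested markers 8 were higher and 3 lower in *VP* tumors, from -0.27 (*Adgre1*) to 0.79 (*Cd14*) in log2 fold change, the sums overlapped as given above, and their part in the *Abca1* values was not tested. Its partner *Abcg1*, also a target of LXR, was at 7.76, 6.15 and 8.76 TPM against 6.46, 7.03 and 8.25 TPM (log2 fold change -0.047, standard error 0.17). The receptors overlapped, *Nr1h3* at 9.86 ± 1.06 and 9.49 ± 1.56 TPM and *Nr1h2* at 84.9 ± 7.03 and 88.5 ± 10.5 TPM (SD, n = 3 each), with log2 fold changes of -0.056 and 0.057.

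The tumors of 1 genotype differed from each other as much as the genotypes did for several genes. Among the 18 enzymes, *VP* replicate 2 was the highest tumor for 9, and *Trp53fl/fl* replicates 2 and 3 were each the lowest for 6. The ratio of *Pmvk* to *Idi1* was 0.353 and 0.226 in *Trp53fl/fl* replicates 1 and 2 and 1.06 in replicate 3. It was 0.831, 1.19 and 1.09 in the *VP* tumors. These are the mevalonate genes with the largest positive and the most negative log2 fold change. The lean of their ratio by genotype thus follows from the pick. Summed over the 7 mevalonate genes, *Trp53fl/fl* replicate 3 (682 TPM) lay near the other controls (665 and 677 TPM). Without *Trp53fl/fl* replicate 3, *Idi1* and *Hmgcs1* joined the genes at an unadjusted limma p under 0.05, on the lower side, with log2 fold changes of -0.71 and -0.42. The ratio of *Dhcr7* to *Sc5d*, which act next to each other, was 1.16, 1.21 and 1.90 in *Trp53fl/fl* tumors and 1.59, 2.32 and 1.98 in *VP* tumors, where *Trp53fl/fl* replicate 3 again fell among the *VP* values. *Dhcr7* had the smallest unadjusted limma p of the list, so the lean of this ratio by genotype also follows from the pick.

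**Figure D5:**
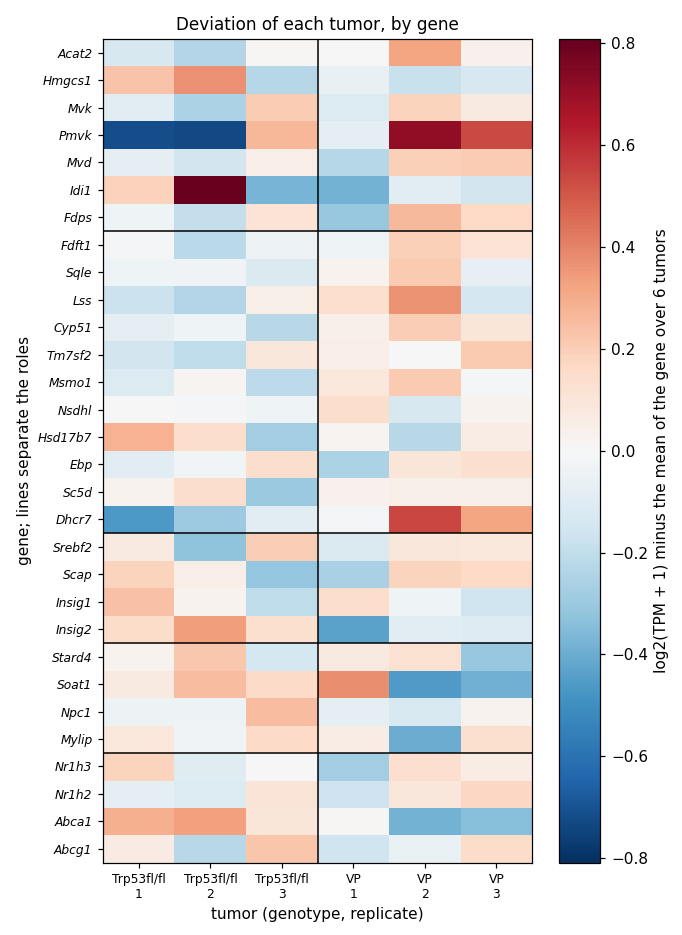
Deviation of log2(TPM + 1) in each tumor (columns) from the mean of the gene over the 6 tumors, for the 30 tested cholesterol genes (rows), red above and blue below the mean, with lines between the roles and between the genotypes. *Pmvk* is below its mean in *Trp53fl/fl* replicates 1 and 2 and above it in replicate 3, and *Idi1* is highest in *Trp53fl/fl* replicate 2.

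In level, the genes ranged from *Fdps* (277 TPM as the mean of the 6 tumors), *Srebf2* (137 TPM) and *Hmgcs1* (113 TPM) down to *Hsd17b7* (13.2 TPM), *Nr1h3* (9.68 TPM) and *Abcg1* (7.40 TPM), with *Npc1l1* at 0.0517 TPM. *Fdft1*, *Msmo1*, *Nr1h2*, *Mvd*, *Cyp51* and *Dhcr7* followed *Hmgcs1* between 94.9 and 78.7 TPM, and neighbours in that stretch lay within the spread between tumors.

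Beyond these genes, 46 others of sterol sensing, isoprenoid branches, intracellular transport and oxysterol synthesis were examined, and 45 passed the filter (*Abcg4*, a sterol exporter of the brain, did not). None passed the limma adjustment, and none had an unadjusted limma p under 0.05, against 12.5% of all genes. Of the 45, 15 lay above and 30 below 0 in log2 fold change (median -0.067, beside -0.070 over all genes). Of these, 4, or 8.89%, lay lower in *VP* tumors without overlap, against 13.3% of all genes: *Coq2* (ubiquinone synthesis), at 49.1, 46.7 and 45.7 against 38.5, 41.6 and 43.6 TPM, the oxysterol-binding protein gene *Osbp*, its relative *Osbpl9*, and *Cyp39a1* (oxysterol hydroxylase). Their log2 fold changes were -0.19, -0.12, -0.15 and -0.21, with limma adjusted p-values of 0.472, 0.621, 0.560 and 0.540. *Srebf1*, the sister factor that favours fatty acid genes, had a log2 fold change of -0.11, and the SREBP proteases *Mbtps1* and *Mbtps2* had -0.053 and -0.12. *Osbpl8*, another oxysterol-binding relative, had the most negative value, -0.47, with overlap. The largest positive values were those of *Cyp7b1*, an oxysterol hydroxylase, at 0.45, and *Tmem97*, a sterol-responsive partner of NPC1, at 0.39 (65.3 to 90.3 TPM against 89.8 to 127 TPM).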

How the data were processed

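RNA-seq was made from 6 colorectal tumors, 3 per genotype. Per the methods, RNA with poly(A) was selected and paired reads were taken. The authors deposited TPM per gene with 2 decimals, not pooled, for 54167 genes. The submitters' processing notes name HISAT2, StringTie and the build mm9, without versions, and the annotation is not given in the sources used here. TPM keep no counts, so depth is unknown, no counting error is given, and a few abundant genes can shift all others. Columns were assigned by the codes in the labels and sum to between 999964 and 1000067. No pair of columns was identical. The labels do not say that the tumors came from separate mice, so p-values measure the spread between these samples.

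From the deposited TPM, log2(TPM + 1) was fitted for the 15117 genes that reached 1 TPM in 3 or more tumors with limma 3.58.1 in R 4.3.3 (empirical Bayes with trend, Benjamini-Hochberg adjustment over all of them). The procedure was tested on simulated data with independent noise per gene and changes larger than any of the list. Its power for changes of the size seen here was not measured. The gene list, its roles, the other pathway genes and the marker lists were chosen with earlier results of these data known. Every gene of the list is named. Per-tumor values are given for genes at an unadjusted p under 0.05, without overlap, or central to a role, and those of *Hmgcs1*, *Idi1*, *Msmo1*, *Soat1*, *Abcg1*, *Nsdhl*, *Sc5d* and *Npc1l1* were added after their values were seen, as were the names *Srebf1*, *Mbtps1*, *Mbtps2*, *Cyp7b1*, *Tmem97*, *Osbpl8* and *Abcg4*. Alternatives were centring on 12 epithelial markers, rescaling by median of ratios, a pseudocount of 0.1, quantile normalization, no filter or a floor of 5 TPM on the mean, a replicate block, no trend, and each tumor left out. Copies were sought with BLAST 2.17.0 among GENCODE M21 transcripts (at least 95% identity over at least 200 bases) and exon overlaps in the same annotation. Its build, GRCm38, differs from the one named in the notes, so it was joined by gene identifier only.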

Additional observations from a re-analysis of the deposited data

How the results depend on the processing

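No cholesterol gene passed the limma adjustment under any of the 14 alternatives (smallest adjusted p 0.129, with epithelial centring), and the cause was not tested for any shift listed here. The replicate numbers come from the labels. Deviations of same-numbered tumors correlated at 0.019, -0.052 and 0.018 across 15117 genes, within the range of tumors with unlike numbers (-0.11 to 0.095). These values show no pairing by number, but 3 tumors per genotype cannot exclude one. With the replicate block 4 cholesterol genes stayed at an unadjusted p under 0.05, as without it. All genes passing the adjustment numbered 25, against 7 without the filter, 45 with epithelial centring, 10 with the replicate block and 3 to 23 with a tumor left out (3 without *Trp53fl/fl* replicate 1). Of those calls 12 were higher and 13 lower in *VP* tumors, against 12 and 8 with median-of-ratios rescaling, 15 and 30 with epithelial centring and 7 and 3 with the block. Cholesterol genes at an unadjusted p under 0.05 numbered 4, and 7 with median-of-ratios rescaling (*Cyp51*, *Acat2* and *Msmo1* added) and 2 to 6 with a tumor left out, where *Dhcr7* was among them each time. The share of all genes at that p was 12.5%, and 11.6% with rescaling, 25.3% with epithelial centring and 7.43% to 16.2% with a tumor left out. With epithelial centring they were *Insig2*, *Abca1* and *Hmgcs1*, all lower, and *Pmvk* was not among them without the filter or the trend. The other pathway genes numbered 0, and 1 with median-of-ratios rescaling, with the block and with no trend, 7 with epithelial centring (7 of 45, below the 25.3% of all genes in that fit) and 0 to 4 with a tumor left out.

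Epithelial centring lowers all genes of *VP* tumors alike, from a median of -0.070 to -0.25, and median-of-ratios rescaling brings it to 0.000624. The median of the cholesterol genes, 0.047, was 0.12 with rescaling, -0.13 with centring and 0.00972 to 0.11 with a tumor left out. With centring the medians were -0.0798 for mevalonate, 0.0015 for sterol synthesis, -0.17 for SREBP2 control, -0.30 for transport and -0.23 for LXR and efflux, and the sum of the 18 enzymes differed by -58.5 TPM (43.1 to 180.01 TPM with a tumor left out). Rescaling gave 0.25 for sterol synthesis and quantile normalization 0.037 for LXR and efflux. With a tumor left out these medians ran from 0.00354 to 0.25 (mevalonate), 0.12 to 0.19 (sterol synthesis), -0.12 to 0.0783 (SREBP2 control), -0.14 to 0.047 (LXR and efflux). Of 30 genes, 14 kept the sign of their log2 fold change under every alternative, among them *Pmvk*, *Dhcr7*, *Cyp51*, *Insig2* and *Abca1*, and 16 with small values did not. With epithelial centring the sign turned for *Mvk* (-0.0798), *Mvd* (-0.0607), *Fdps* (-0.0955), *Sqle* (-0.0584), *Nsdhl* (-0.14), *Sc5d* (-0.0906), *Srebf2* (-0.14), *Scap* (-0.12), *Nr1h2* (-0.12). With rescaling the sign turned for *Ebp* (0.058), *Insig1* (0.0403), *Stard4* (0.00398), *Nr1h3* (0.0152), *Abcg1* (0.0219). With quantile normalization the sign turned for *Nr1h3* (0.0388), *Abcg1* (0.0351). With a tumor left out it turned at least once for *Abcg1* (-0.17 to 0.0536), *Ebp* (-0.0884 to 0.10), *Fdps* (-0.033 to 0.25), *Hsd17b7* (-0.26 to 0.0187), *Insig1* (-0.15 to 0.0714), *Mvk* (-0.0109 to 0.22), *Mylip* (-0.24 to 0.0243), *Nr1h2* (-0.0112 to 0.15), *Nr1h3* (-0.14 to 0.0719), *Nsdhl* (-0.0339 to 0.10), *Sc5d* (-0.0438 to 0.18), *Scap* (-0.0893 to 0.20), *Srebf2* (-0.11 to 0.15), *Stard4* (-0.16 to 0.0632).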
